A study of Caenorhabditis elegans with 18 samples.

Results

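The comparison described here set starved 0 h larvae of Caenorhabditis elegans against 3-fold embryos, the late embryonic stage at which the elongated worm lies folded in its eggshell. It took 2 of the 18 conditions of the study, and 6 of its 54 Affymetrix arrays, with 3 biological replicate arrays a condition. The starved 0 h animals had hatched without food in S-complete, a buffered salt medium. The 3-fold embryos were collected 2 h before hatching. Fed 0 h larvae, which hatched in the same medium with 25 mg/ml of the bacterium E. coli HB101, are given beside both conditions. All groups were of strain N2, the standard laboratory wild type, kept at 20 °C. Populations hatched within 2.5 h, and 0 h was the time when 50% of the animals had hatched, so the starved 0 h material was a mixture of new larvae and embryos still in the shell. The question was which transcripts differ between the end of embryogenesis and hatching into a medium with no food.

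A late embryo secretes the first larval cuticle, a layered matrix of cross-linked collagens, beneath a temporary outer sheath of zona pellucida domain proteins, and then digests its way out of the eggshell. A larva that hatches without food does not start larval growth and enters the first-stage arrest, in which lowered insulin signalling lets the FoxO factor DAF-16 act on metabolic and stress genes. The stored yolk lipid, the glyoxylate route from fat to sugar, and trehalose are known fuel and protective systems of this stage.

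Each value below is the authors' mean intensity of a probe set on a linear scale over 3 arrays, with the experimental error they deposited beside it, whose error model was not stated. The median intensity over 22548 worm probe sets was 39.4 in starved 0 h larvae, 39.7 in fed 0 h larvae and 41.2 in 3-fold embryos. At the authors' detection threshold, a p of 1e-10 against background, 11876 probe sets were detected in starved 0 h larvae and 12230 in embryos. The median error of a detected probe set was 9.55% of its mean in starved 0 h larvae and 10.1% in embryos. Of the probe sets, 20319 mapped to 1 gene, and the gene lists below use 1 probe set for each of 17000 genes. In 3 of 3 culture series the starved 0 h and the embryo array shared their hybridization day, and neither shared a day with a fed 0 h array.

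Transcripts differed in both directions. After Benjamini-Hochberg adjustment of the p-values in the authors' deposited table over all 22548 probe sets, 542 were called at an adjusted p under 0.05, which is 2.4% of those tested. Of these, 260 were higher in starved 0 h larvae (1.15%) and 282 were lower (1.25%). The called adjusted p-values lay between 0.0188 and 0.0499, all close to the threshold, while 5716 probe sets had an unadjusted p under 0.05. A second test, the difference of the means over their combined errors with 4 degrees of freedom, called 646 probe sets, of which 226 were among the 542. With that test the count was 6379 under a normal distribution, 0 with means under 20 raised to 20 and 0 with errors of at least 15% of the mean, while the authors' p-values adjusted over detected probe sets alone gave 1891. The list of called genes therefore depended strongly on the test and its settings, and a gene that was not called is given below by its values only. Size and call were loosely tied: 172 of the called probe sets differed by less than 2-fold, and 70 probe sets that differed by at least 2-fold and were detected in the higher condition have a p of 1 in the authors' deposited table. The authors had set means under 5 to 5, and of 3122 probe sets at that floor in either condition, 2201 have a p of 1 in the authors' deposited table. Of the 542, 366 also differed by at least 2-fold with detection in the higher condition (1.62%), and of the 17000 genes 310 did (1.82%). Without a test 1428 probe sets were at least 2-fold higher with detection (6.33%) and 1568 at least 2-fold lower (6.95%). "Rose" and "fell" are used only for called genes.

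**Figure D1:**
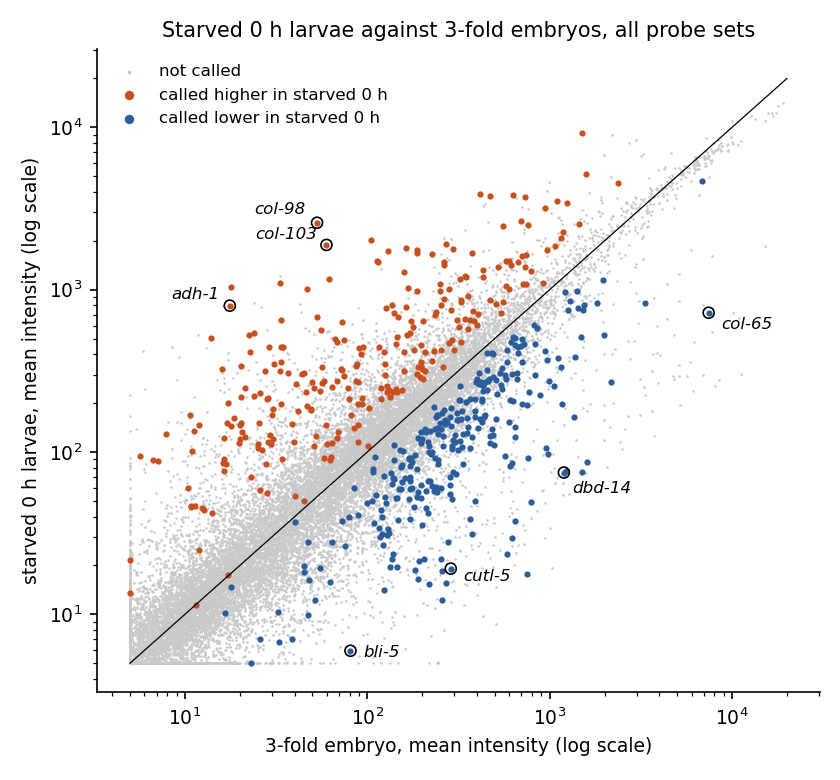
Mean intensity of every worm probe set in starved 0 h larvae (vertical axis) against 3-fold embryos (horizontal axis), both on log scales, with the diagonal of equal values. The 260 probe sets called higher lie above the diagonal and the 282 called lower below it, many grey points lie as far out, and the line of points at 5 is the authors' floor.

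The genes with the largest called rises were cuticle collagens, enzymes of alcohol, aldehyde and lipid metabolism, and single genes of other families. The collagen col-98 averaged 2585 ± 385 in starved 0 h larvae and 53 ± 18.2 in embryos, where it was not detected. The ratio of these means is 48.7-fold (log2 ratio 5.61 ± 0.54). Where a named gene was not detected in its lower condition, "at least" before its fold marks a nominal bound that leaves out the errors. If the dim mean lies above the lowest detected mean of its condition, this bound is the plain ratio of the means. The collagen col-103 averaged 1887 ± 195 in starved 0 h larvae and 59.7 ± 17.3 in embryos (at least 31.6-fold). In both genes the 2 means were separated by several times their errors. In the second test, over the combined errors, the adjusted p was 0.0498 for col-103 and 0.0533 for col-98, so only col-103 was called. The alcohol dehydrogenase adh-1 averaged 797 ± 118.9 in starved 0 h larvae and 17.6 ± 12.63 in embryos, at least 40.4-fold higher. The aldehyde dehydrogenase gene alh-5 averaged 542 ± 79.4 in starved 0 h larvae and 24 ± 7.57 in embryos (at least 22.6-fold). Both oxidise small alcohols or aldehydes.

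Lipid genes stood beside them. The stearoyl-CoA desaturase gene fat-6, whose enzyme makes oleic acid, averaged 653 ± 75.5 in starved 0 h larvae and 33.7 ± 10.3 in embryos (at least 19.4-fold). The fatty acid binding protein gene lbp-2 averaged 323 ± 47.3 in starved 0 h larvae and 16 ± 5.81 in embryos (at least 16.36-fold). A fatty acid amide hydrolase gene, faah-6, averaged 89.5 ± 14.1 in starved 0 h larvae and 6.67 ± 3.44 in embryos (at least 4.53-fold), a much lower level. The genes pud-1.2 and pud-2.1 encode proteins known to accumulate when the insulin receptor DAF-2 is reduced. In starved 0 h larvae pud-1.2 averaged 1160.5 ± 116, against 61.5 ± 16.07 in embryos (at least 18.9-fold). The second, pud-2.1, averaged 1493 ± 130.5 in starved 0 h larvae and 113 ± 20.3 in embryos, and it was detected in both (log2 ratio 3.72 ± 0.29).

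The remaining leading rises were of mixed kinds. The acid phosphatase gene acp-6 averaged 1742 ± 152 in starved 0 h larvae and 129 ± 22.2 in embryos, with detection in both (log2 ratio 3.75 ± 0.28). For the C-type lectin gene clec-48 the means were 411 ± 49.8 in starved 0 h larvae and 22.7 ± 7.97 in embryos (at least 18.1-fold), and a second probe set of the gene was called in the same direction. The aspartyl protease gene asp-8 averaged 129.8 ± 23.8 in starved 0 h larvae and 7.85 ± 6.01 in embryos (at least 6.57-fold), and the glutathione transferase gene gst-14 averaged 134 ± 14.5 in starved 0 h larvae and 11.3 ± 4.47 in embryos (at least 6.8-fold). The other 2 are named without a role. In starved 0 h larvae spig-15 averaged 1097 ± 82.7, against 33.1 ± 8.87 in embryos (at least 33.2-fold). For srdh-1 the means were 446 ± 38.8 in starved 0 h larvae and 29.1 ± 6.56 in embryos (at least 15.3-fold). Of these 15 genes 13 were not detected in embryos, so their order among themselves is not resolved. The second test, over the combined errors, did not call col-98, adh-1, alh-5, lbp-2, faah-6, clec-48 or asp-8. It called the others of the 15.

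The genes with the largest called falls again included genes of the body covering, though the steepest fall, dbd-14, is given below without a role. The collagen col-65 averaged 721 ± 92.4 in starved 0 h larvae and 7446 ± 639 in embryos (log2 ratio -3.37 ± 0.22). The cuticlin-like gene cutl-5 averaged 19.1 ± 4.18 in starved 0 h larvae, where it was not detected, and 287 ± 19.2 in embryos, at least 13.8-fold lower. The gene bli-5, which encodes a protease inhibitor domain protein needed for an intact cuticle, averaged 5.96 ± 3.10 in starved 0 h larvae, near the floor, and 80.9 ± 9.25 in embryos (at least 3.89-fold lower). These are 3 different classes of covering gene: a collagen, a zona pellucida domain protein and a moulting factor. The gene lon-8, whose product is secreted by the epidermis and affects body length, averaged 165 ± 21.2 in starved 0 h larvae and 1358 ± 105 in embryos (log2 ratio -3.04 ± 0.22). For the hedgehog-related gene hog-1 the means were 27.8 ± 6.14 in starved 0 h larvae and 276 ± 22.8 in embryos (at least 9.93-fold lower).

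Enzyme and transporter genes were also among the falls. The trehalase gene tre-5, whose enzyme splits trehalose into glucose, averaged 18.5 ± 5.04 in starved 0 h larvae and 255 ± 20.2 in embryos (at least 12.3-fold lower). Its adjusted p was tied for the lowest of the comparison with those of several probe sets, the astacin gene toh-1 below among them. The lipase-related gene lips-7 averaged 31.1 ± 8.72 in starved 0 h larvae and 374 ± 36.6 in embryos (at least 12-fold lower). For swt-5, a sugar transporter gene of the SWEET family, the means were 21.9 ± 4.43 in starved 0 h larvae and 204 ± 14.3 in embryos (at least 9.28-fold lower). The related beta-lactamase domain genes lact-7 and lact-8 moved together. In starved 0 h larvae lact-7 averaged 16.43 ± 4.71, against 189.5 ± 23.5 in embryos (at least 9.12-fold lower), although its second probe set was not called. The other, lact-8, averaged 38.8 ± 7.80 in starved 0 h larvae and 364 ± 29.5 in embryos (log2 ratio -3.23 ± 0.31).

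The other 5 leading falls are named without a role. The brightest was dbd-19, at 268 ± 37.8 in starved 0 h larvae and 2177 ± 199.9 in embryos (log2 ratio -3.02 ± 0.24). The steepest, dbd-14, averaged 74.7 ± 15.3 in starved 0 h larvae and 1197 ± 89.7 in embryos (log2 ratio -4.0 ± 0.31). The gene idpc-6 averaged 106 ± 13 in starved 0 h larvae and 953 ± 59 in embryos (log2 ratio -3.17 ± 0.20), and appg-1 averaged 49.7 ± 9.33 in starved 0 h larvae and 391 ± 32 in embryos. For idpp-10 the means were 15.5 ± 4.46 in starved 0 h larvae, not detected, and 217 ± 35.7 in embryos (at least 10.4-fold lower). Among the 15 leading falls, 8 were not detected in starved 0 h larvae, against 13 of 15 leading rises not detected in embryos.

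**Figure D2:**
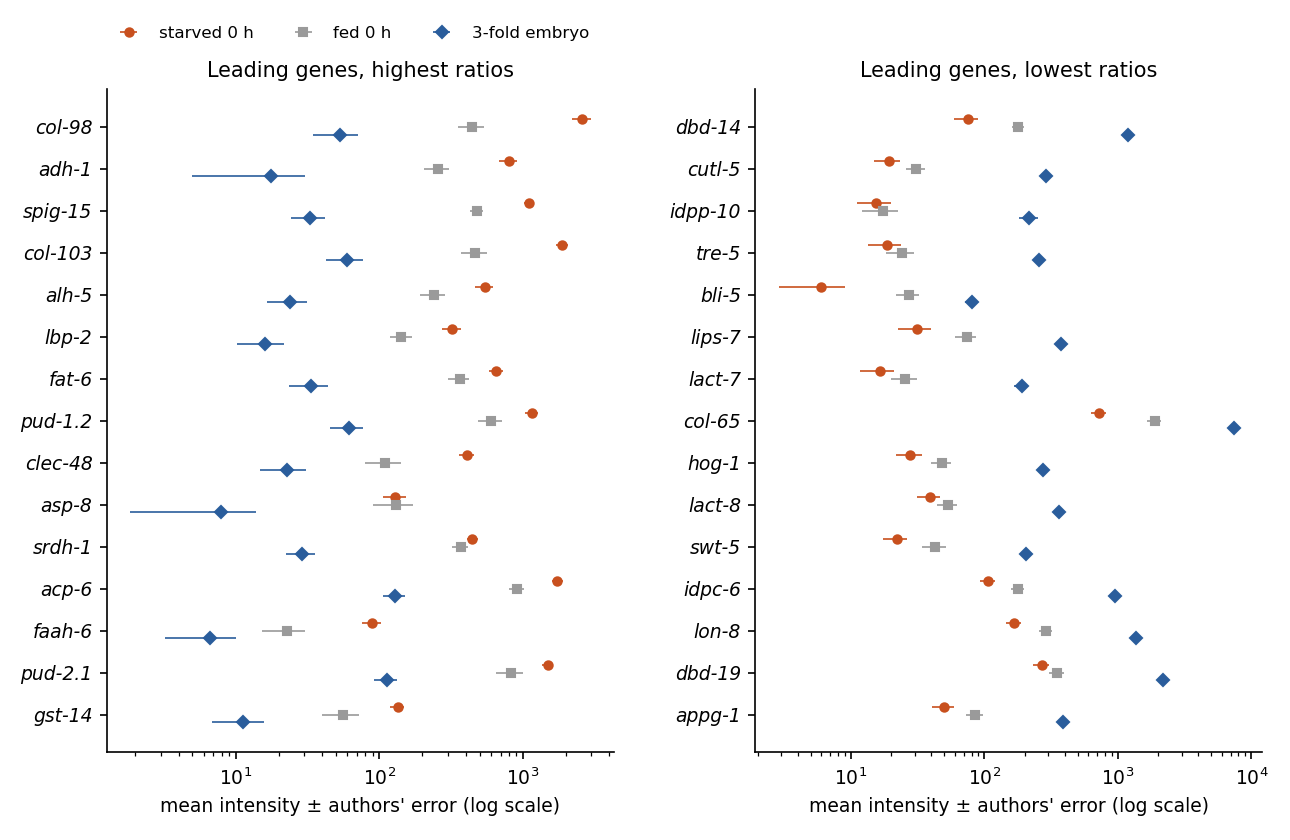
Mean intensity with the authors' error, on a log axis, of the 15 called genes with the highest and the 15 with the lowest ratio, in starved 0 h larvae (circles), fed 0 h larvae (squares) and 3-fold embryos (diamonds). In the left panel starved 0 h larvae lie to the right of embryos, with col-98 at 2585 ± 385 in starved 0 h larvae and 53 ± 18.2 in embryos, and in the right panel to the left of them, with dbd-14 at 74.7 ± 15.3 in starved 0 h larvae and 1197 ± 89.7 in embryos.

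Some of the widest differences in the table were not called. The following genes were picked after their values were seen, out of the 15 highest and 15 lowest ratios without a call. Only genes with a public name were ranked. Over all probe sets the log2 ratios ran between -5.86 and 6.15. The highest of these was fipr-22, related to fungus-induced proteins, at 441 ± 101 in starved 0 h larvae and 8.51 ± 7.21 in embryos. The collagen col-80 averaged 1220.5 ± 148 in starved 0 h larvae and 33.1 ± 14.5 in embryos, and the saposin-like gene spp-1 averaged 565 ± 70.3 in starved 0 h larvae and 28 ± 9.20 in embryos. All 3 were below detection in embryos. The lowest of these ratios was in dbd-5, at 19.2 ± 11.9 in starved 0 h larvae and 1034 ± 111 in embryos. Covering genes with a high embryonic signal stood near it. The collagen col-165 averaged 302 ± 118 in starved 0 h larvae, below detection with a wide error, and 11132 ± 1000.0 in embryos. The collagen col-74 averaged 279 ± 89.8 in starved 0 h larvae and 8536 ± 735 in embryos. One probe set of abu-14 averaged 253 ± 81.1 in starved 0 h larvae, below detection, and 8084 ± 939 in embryos, and the second, which stands for the gene in the lists, averaged 549 ± 157 in starved 0 h larvae, where it was detected, and 7755 ± 954 in embryos. Their Benjamini-Hochberg adjusted p-values, over the authors' p-values, were 0.246 for fipr-22, 0.0527 for col-80, 0.0557 for spp-1, 0.158 for dbd-5, 0.111 for col-165, 0.123 for col-74, and 0.104 for the first-named probe set of abu-14 and 0.116 for its second.

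The lists of cuticle and outer matrix genes had median log2 ratios below 0, with exceptions among their members. These are whole animals, so fewer cells of a type and less RNA per cell cannot be told apart in any list. Counts by gene are read against the share of all 17000 genes that was called, 1.22% higher and 1.29% lower, and against the share that differed by at least 2-fold with detection in the higher condition, 6.86% higher and 7.59% lower, with no test. Of 158 cuticle collagens, 2 rose and 7 fell, while 13 were at least 2-fold higher and 33 at least 2-fold lower. Their median log2 ratio was -0.30, against 0 over all genes. The falls other than col-65 included col-54, at 82.4 ± 16.3 in starved 0 h larvae and 608 ± 59.7 in embryos (log2 ratio -2.88 ± 0.32). Further falls were col-174, at 73.6 ± 11.9 in starved 0 h larvae and 305 ± 28 in embryos, and col-156, at 62.8 ± 11.4 in starved 0 h larvae and 196 ± 21.9 in embryos. Over the whole list the summed intensity was 205215 in starved 0 h larvae, 225742 in fed 0 h larvae and 280173 in embryos. The furrow collagens, which form the rings of the cuticle surface, were mostly below detection: of 5 measured, only dpy-2 was detected, and it fell, at 168 ± 24 in starved 0 h larvae and 245 ± 30.4 in embryos. The early collagen sqt-3, one of the main collagens of the first cuticle, averaged 1610.3 ± 396 in starved 0 h larvae and 7802 ± 949 in embryos and was not called.

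The apical matrix list, which holds zona pellucida domain proteins, lipocalins and partners of the sheath that shapes the embryo, had 0 rises and 2 falls among 50 genes. None of them was at least 2-fold higher with detection and 21 were at least 2-fold lower, with a median log2 ratio of -1.01, or -1.51 over the 35 members detected in either condition. Its summed intensity was 3434 in starved 0 h larvae and 23071 in embryos. Beside cutl-5 the other fall was cutl-26, at 161 ± 10.7 in starved 0 h larvae and 506 ± 23.3 in embryos (log2 ratio -1.65 ± 0.12). The sheath protein genes noah-1 and noah-2 were not called. For noah-1 the means were 97.2 ± 26.1 in starved 0 h larvae and 125 ± 26.4 in embryos, a difference within their combined error.

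The hedgehog-related and patched-related genes, a large nematode family expressed largely in epidermis and support cells, had the lowest median among the covering lists. Of 78 genes, 2 rose and 4 fell, and 32 were at least 2-fold lower against 4 at least 2-fold higher (median log2 ratio -1.22). Over the 48 members detected in either condition the median was -2.13. Among the patched-related receptors, ptr-23 averaged 256 ± 21.6 in starved 0 h larvae and 1056 ± 62.5 in embryos (log2 ratio -2.04 ± 0.15), and ptr-3 averaged 51.3 ± 9.58 in starved 0 h larvae and 291 ± 26.3 in embryos. The ground-domain gene grd-5 also fell, with 384 ± 41.3 in starved 0 h larvae and 1386 ± 114 in embryos. A ground-like gene and another ground-domain gene went the other way. The gene grl-21 averaged 1914 ± 318 in starved 0 h larvae and 270.2 ± 68 in embryos (log2 ratio 2.82 ± 0.44), and grd-10 averaged 3163 ± 219 in starved 0 h larvae and 943 ± 78.5 in embryos (log2 ratio 1.75 ± 0.16). Members of 1 family therefore rose and fell in the same comparison.

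Of 81 abu and pqn genes, glutamine- and asparagine-rich proteins several of which are known from the pharyngeal cuticle, 0 rose and 3 fell, and 27 were at least 2-fold lower against 2 higher. The gene pqn-35 averaged 195 ± 14.4 in starved 0 h larvae and 753 ± 54.4 in embryos (log2 ratio -1.95 ± 0.15). The moulting list, 23 genes, had 1 fall, bli-5, and no rise.

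Hatching itself is linked to astacin metalloproteases. Of 35 members 1 fell and 0 rose, with 10 at least 2-fold lower and 4 at least 2-fold higher. The fall was in toh-1, a tolloid-like astacin, at 142 ± 20.1 in starved 0 h larvae and 644 ± 56.4 in embryos (log2 ratio -2.18 ± 0.24). The gene hch-1, whose product is the hatching enzyme, averaged 105 ± 26.2 in starved 0 h larvae and 85.9 ± 18.5 in embryos, a difference within their combined error. The 16 eggshell and chitin genes had no call in either direction, and their median log2 ratio was -0.80.

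**Figure D3:**
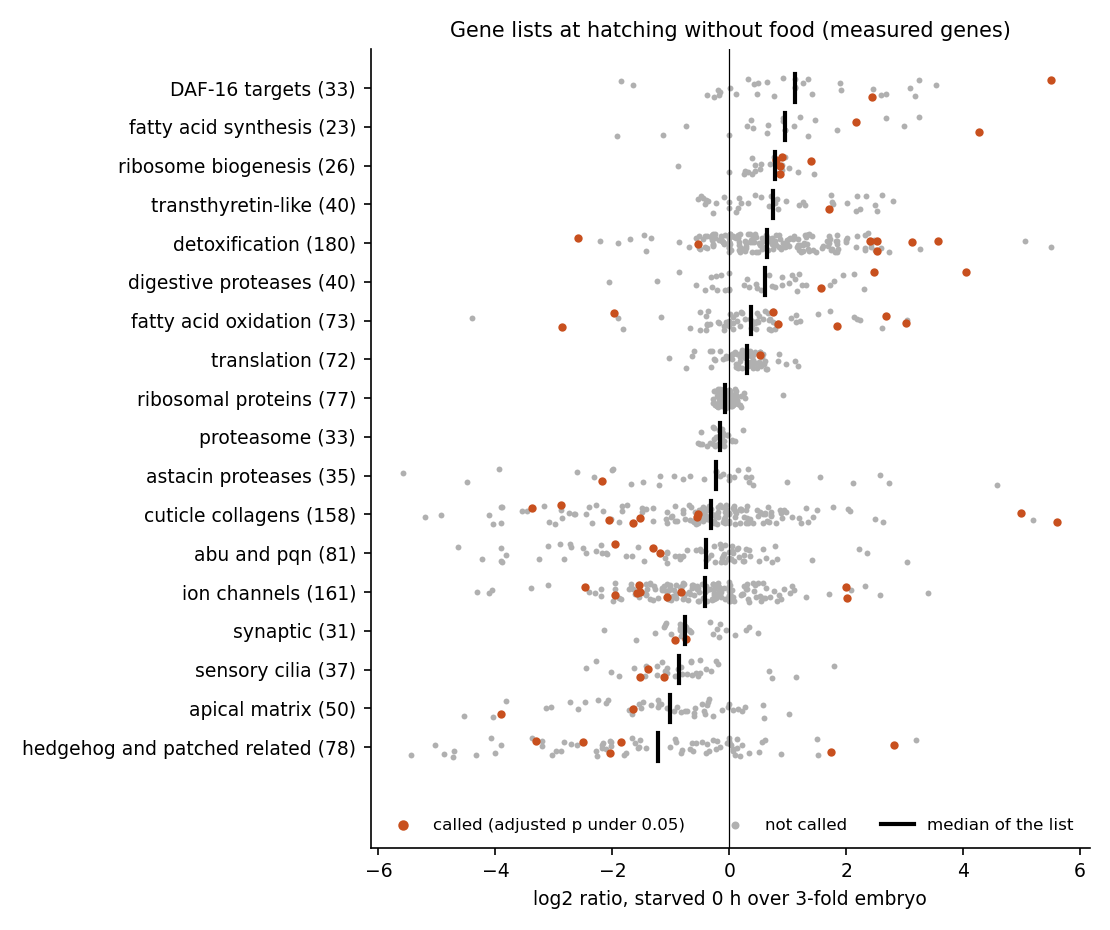
Log2 ratio of starved 0 h larvae over 3-fold embryos for each measured gene of 18 lists, ordered by the list's median (black bar), with the number of measured genes in brackets and called genes in orange. Medians run between -1.22 for the hedgehog and patched related genes and 1.12 for the DAF-16 targets, and ribosomal proteins and proteasome subunits form the tightest groups around 0.

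Several lists of metabolic genes had median log2 ratios above 0. Of 33 genes known as targets of DAF-16, 2 rose and 0 fell, 14 were at least 2-fold higher and 2 at least 2-fold lower, and the median log2 ratio was 1.12. The list was not split by the direction in which DAF-16 acts on each member, so its counts and median are no measure of DAF-16 activity. Beside adh-1 the other rise was dod-3, at 1422 ± 153 in starved 0 h larvae and 262 ± 39.6 in embryos (log2 ratio 2.44 ± 0.27). Its fed 0 h mean was 379 ± 51, close to the embryo. The mitochondrial superoxide dismutase gene sod-3 averaged 554 ± 141 in starved 0 h larvae and 61.5 ± 17.2 in embryos, and the metallothionein gene mtl-1 averaged 555 ± 89.5 in starved 0 h larvae and 47.6 ± 11.3 in embryos. Neither was called. The flavin monooxygenase gene fmo-2 averaged 784 ± 97.6 in starved 0 h larvae and 26.2 ± 12.4 in embryos, and missed the threshold narrowly, at an adjusted p of 0.0529 by the same Benjamini-Hochberg adjustment. The fatty acid and retinol binding protein gene far-7 averaged 399 ± 45.4 in starved 0 h larvae and 30.2 ± 6.07 in embryos, with an adjusted p of 0.0527 by that adjustment. The fed 0 h means of fmo-2 and far-7 were 48.6 ± 16.6 and 47.3 ± 7.50.

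In the list of glyoxylate, gluconeogenic and trehalose genes, 23 members, 3 rose and 1 fell. The phosphoenolpyruvate carboxykinase gene pck-2, for the entry step of gluconeogenesis, averaged 3410.2 ± 149 in starved 0 h larvae and 1253 ± 36.7 in embryos (log2 ratio 1.44 ± 0.08). The cytosolic malate dehydrogenase gene mdh-1 averaged 2261 ± 105 in starved 0 h larvae and 1190.5 ± 59.5 in embryos (log2 ratio 0.93 ± 0.10). Beside them adh-1 rose and tre-5 fell, as given above. The glyoxylate enzyme gene icl-1 averaged 2653 ± 304 in starved 0 h larvae and 3458 ± 437 in embryos, and pck-1 averaged 1897 ± 103.1 in starved 0 h larvae and 2115 ± 114 in embryos, neither called. The trehalose synthase gene tps-1 averaged 573 ± 45.2 in starved 0 h larvae and 303 ± 21.9 in embryos and was not called. Among 17 glycolysis genes the only call was the aldolase gene aldo-2, at 4538 ± 200.3 in starved 0 h larvae and 2364 ± 94.7 in embryos (log2 ratio 0.94 ± 0.09).

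Genes that build or modify fatty acids included the leading gene fat-6. Of 23, 2 rose, 10 were at least 2-fold higher and 2 at least 2-fold lower (median log2 ratio 0.95). Beside fat-6, the elongase gene elo-1, for long-chain polyunsaturated fatty acids, averaged 1684 ± 103.5 in starved 0 h larvae and 375 ± 22.3 in embryos (log2 ratio 2.17 ± 0.12). The paralogous desaturase gene fat-7 was not detected in either condition, and sequence shared between the close paralogs was not examined. Of 73 genes of fatty acid oxidation and lipolysis 5 rose and 2 fell. The peroxisomal oxidation gene maoc-1 averaged 1161 ± 66.3 in starved 0 h larvae and 322 ± 24.7 in embryos (log2 ratio 1.85 ± 0.14). The lysosomal lipase gene lipl-1 averaged 132 ± 18.2 in starved 0 h larvae and 20.5 ± 7.13 in embryos (at least 6.43-fold), and the carnitine palmitoyltransferase gene cpt-5 averaged 145 ± 17.2 in starved 0 h larvae and 17.9 ± 6.04 in embryos (at least 7.33-fold). A second member of that family, cpt-4, fell, with 29.9 ± 7.39 in starved 0 h larvae and 118 ± 14.9 in embryos. The acyl-CoA synthetase gene acs-20, known for a part in the cuticle barrier, fell as well, with 85.3 ± 19.5 in starved 0 h larvae and 621 ± 73.6 in embryos (log2 ratio -2.86 ± 0.37).

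Carriers of lipid were split. Of 25 fatty acid binding, retinol binding and yolk protein genes, 2 rose and 2 fell. Within the lbp family lbp-2 and lbp-7 rose while lbp-3 fell. The means of lbp-7 were 444 ± 35.4 in starved 0 h larvae and 95.2 ± 13.3 in embryos (log2 ratio 2.22 ± 0.23), and those of lbp-3 were 100.0 ± 11.5 in starved 0 h larvae and 228 ± 15 in embryos (log2 ratio -1.19 ± 0.19). The abundant carrier gene far-1 fell by a small amount, with 4657 ± 145 in starved 0 h larvae and 6876 ± 175 in embryos (log2 ratio -0.56 ± 0.06). Among 47 respiratory chain genes the 1 call was gas-1, a complex I subunit, at 715 ± 29.9 in starved 0 h larvae and 542 ± 24.1 in embryos. The antioxidant list, 34 genes, had 1 rise, the mitochondrial thioredoxin gene trx-2, at 490.1 ± 19.9 in starved 0 h larvae and 291 ± 13.7 in embryos.

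In the lists of digestion, defence and detoxification more genes were at least 2-fold higher in starved 0 h larvae than at least 2-fold lower. Of 40 genes in the digestive and lysosomal protease list, 3 rose, 13 were at least 2-fold higher and 1 at least 2-fold lower. The list also holds the nuclease gene nuc-1 and the growth factor-like gene svh-1. Beside asp-8, the aspartyl protease gene asp-14 averaged 1477 ± 136 in starved 0 h larvae and 265 ± 33.3 in embryos (log2 ratio 2.48 ± 0.22), and the cathepsin B-like gene cpr-4 averaged 698 ± 116 in starved 0 h larvae and 236 ± 53.3 in embryos (log2 ratio 1.57 ± 0.40). Detoxification genes, the cytochrome P450, glucuronosyltransferase and glutathione transferase families, had 5 rises and 2 falls among 180. By size 42 were at least 2-fold higher and 4 at least 2-fold lower, and the median log2 ratio was 0.64. The glutathione transferase gene gst-12 averaged 162 ± 23.7 in starved 0 h larvae and 18.6 ± 7.90 in embryos (at least 8.21-fold). For the P450 gene cyp-33E1 the means were 114 ± 13 in starved 0 h larvae and 19.7 ± 4.58 in embryos (at least 5.76-fold), close to those of the glucuronosyltransferase gene ugt-11, at 124 ± 20.9 in starved 0 h larvae and 21.5 ± 5.69 in embryos. The exception of size was the omega-class gene gsto-3, which fell, with 93.8 ± 11.2 in starved 0 h larvae and 566 ± 36.1 in embryos (log2 ratio -2.59 ± 0.20).

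Of 61 lysozyme and antimicrobial peptide genes 2 rose, 12 were at least 2-fold higher and 0 were at least 2-fold lower. Both rises were epidermal peptides: nlp-29 averaged 2658 ± 284 in starved 0 h larvae and 693 ± 89.3 in embryos (log2 ratio 1.94 ± 0.24), and the caenacin gene cnc-8 averaged 639 ± 62.2 in starved 0 h larvae and 174 ± 25.2 in embryos. C-type lectin genes, many of them known from defence, numbered 225, of which 55 were detected in either condition. Of all 225 3 rose, namely clec-48, clec-15 and clec-52, against 1.22% of all genes. By size 28 were at least 2-fold higher and 9 at least 2-fold lower. The means of clec-15 were 315 ± 40.4 in starved 0 h larvae and 33.4 ± 7.53 in embryos (at least 9.44-fold). Of 40 transthyretin-like genes, a secreted nematode family, 1 rose, 15 were at least 2-fold higher and 0 at least 2-fold lower. The called member, ttr-15, averaged 5176 ± 464 in starved 0 h larvae and 1581 ± 155 in embryos (log2 ratio 1.71 ± 0.19). Among 133 transporter genes 1 rose and 2 fell: the monocarboxylate transporter family gene slc-5A12 averaged 275 ± 27.3 in starved 0 h larvae and 68.4 ± 10.9 in embryos, and the dicarboxylate transporter gene nac-2, beside swt-5, fell to 66.4 ± 7.98 in starved 0 h larvae, against 221 ± 16 in embryos.

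Several genes of the nucleolus, where ribosomes are assembled, were called. Of 26 genes of ribosome biogenesis, 5 rose and 0 fell, with a median log2 ratio of 0.78. The small-subunit processing gene nol-6 averaged 90.4 ± 11.2 in starved 0 h larvae and 34.2 ± 6.86 in embryos (at least 2.64-fold). The box C/D protein gene nol-56 averaged 1050.0 ± 65.5 in starved 0 h larvae and 574 ± 40.4 in embryos (log2 ratio 0.87 ± 0.14). The RNA polymerase I subunit gene rpoa-2 averaged 360.3 ± 25.6 in starved 0 h larvae and 198 ± 17.2 in embryos (log2 ratio 0.86 ± 0.16), and the pescadillo homolog lpd-7 averaged 1377 ± 51.1 in starved 0 h larvae and 737 ± 30.4 in embryos. The fed 0 h means of these 4 genes were 82.7 ± 12.8 for nol-6, 1059 ± 132 for nol-56, 384 ± 49.4 for rpoa-2 and 1179.9 ± 75.5 for lpd-7. Fibrillarin, fib-1, averaged 3018 ± 148 in starved 0 h larvae and 1855 ± 94.9 in embryos and was not called.

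Ribosomal protein genes had no call. Of 77, 0 rose and 0 fell, none was 2-fold different with detection, and the median log2 ratio was -0.08. Translation factors and tRNA synthetases, 72 genes, had 1 rise, the initiation factor gene inf-1, at 1077 ± 54.9 in starved 0 h larvae and 744 ± 40.6 in embryos, and a median of 0.30. The 33 proteasome subunits had no call and a median of -0.16. In the cell division lists, 36 replication genes, 43 mitosis genes and 15 G1 control genes, no gene was called in this comparison. The inhibitor gene cki-1, which holds cells in G1 during the arrest, averaged 492 ± 23.1 in starved 0 h larvae and 358 ± 18.3 in embryos and was not called. Of 49 core histone genes his-35, an H2A gene, fell, with 443 ± 22.4 in starved 0 h larvae and 673 ± 30.8 in embryos, and histone probe sets can share sequence with near-identical copies. Linker histones differed in both directions without a call: hil-1 averaged 186 ± 35.9 in starved 0 h larvae and 21.9 ± 5.51 in embryos, and hil-7 averaged 1081 ± 198 in starved 0 h larvae and 4410.5 ± 495 in embryos.

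Few signalling genes were called. The 24 insulin-like peptide genes, of which 7 were detected, and the 18 genes between the insulin receptor and FoxO had no call. The FoxO gene daf-16 averaged 464 ± 69.5 in starved 0 h larvae and 231 ± 26.3 in embryos and was not called. The receptor gene daf-2 was below detection in both. The 20 TOR and AMPK genes and the 26 autophagy genes had no call, with medians of 0.26 and 0.16. Of 268 nuclear receptor genes 3 rose and 0 fell, against 1.22% and 1.29% of all genes. By size 24 were at least 2-fold higher and 14 at least 2-fold lower. The receptor gene nhr-97 averaged 269 ± 24.8 in starved 0 h larvae and 49.8 ± 7.54 in embryos (log2 ratio 2.43 ± 0.26), and nhr-101 averaged 193 ± 19.5 in starved 0 h larvae and 46.6 ± 4.61 in embryos, with 68.4 ± 7.31 in fed 0 h larvae. In the Wnt list, 18 genes, the Ror-type receptor gene cam-1 fell, with 169 ± 11 in starved 0 h larvae and 442 ± 20.9 in embryos (log2 ratio -1.39 ± 0.12), and the axin gene pry-1 rose, with 257 ± 19 in starved 0 h larvae and 127 ± 12.2 in embryos (log2 ratio 1.01 ± 0.17). The casein kinase gene kin-20, a timing gene, fell, with 208 ± 17.2 in starved 0 h larvae and 631 ± 37.7 in embryos (log2 ratio -1.60 ± 0.15). In the dauer TGF-beta and steroid list of 24 genes the 1 call was a small fall of the Smad gene daf-14, with 406 ± 19.4 in starved 0 h larvae and 455 ± 21.1 in embryos.

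The synaptic, sensory cilium and ion channel lists had medians below 0. Of 31 synaptic genes 2 fell and 0 rose, with a median log2 ratio of -0.75. The choline acetyltransferase gene cha-1 averaged 151 ± 10.9 in starved 0 h larvae and 251 ± 15.1 in embryos (log2 ratio -0.73 ± 0.14), and the pan-neuronal gene unc-119 averaged 95.7 ± 9.65 in starved 0 h larvae and 182 ± 14.1 in embryos. The 37 sensory cilium genes, many but not all of them parts of the transport along cilia, had 3 falls and 0 rises. Their median was -0.86, and 15 were at least 2-fold lower. Among these, klp-20 and kap-1 encode partners in the kinesin-II motor. The means of klp-20 were 99.7 ± 6.55 in starved 0 h larvae and 217 ± 10.8 in embryos (log2 ratio -1.12 ± 0.12), and those of kap-1 were 48.2 ± 7.0 in starved 0 h larvae and 127 ± 11.8 in embryos. The transport particle gene che-2 averaged 26.3 ± 3.85 in starved 0 h larvae and 75.9 ± 6.74 in embryos.

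Of 161 ion channel genes 7 fell and 2 rose, 48 were at least 2-fold lower and 10 at least 2-fold higher. The acetylcholine receptor subunit gene acr-11 averaged 38.3 ± 5.29 in starved 0 h larvae and 148 ± 10.9 in embryos (log2 ratio -1.95 ± 0.23), and the tyramine-gated channel gene lgc-55 averaged 58.9 ± 8.23 in starved 0 h larvae and 171 ± 12.62 in embryos. The potassium channel gene twk-5 rose, with 296 ± 20.1 in starved 0 h larvae and 74.1 ± 7.48 in embryos (log2 ratio 2.00 ± 0.18). Of 88 neuropeptide genes 7 rose and 1 fell, with a median of -0.02, and the rises include nlp-29, counted above as an epidermal antimicrobial peptide. Among the others nlp-20 averaged 436 ± 30.8 in starved 0 h larvae and 89.8 ± 11.3 in embryos (log2 ratio 2.28 ± 0.21). The gene nlp-12 averaged 589.6 ± 54.9 in starved 0 h larvae and 178 ± 24 in embryos, and nlp-17 averaged 879 ± 42 in starved 0 h larvae and 264 ± 17.3 in embryos. The fall was nlp-57, with 57.9 ± 6.98 in starved 0 h larvae and 211 ± 16.11 in embryos. Of 1180 chemoreceptor genes only 79 were detected in either condition. The list had 2 calls, a fall of srg-51, at 6.71 ± 2.35 in starved 0 h larvae and 32.8 ± 5.66 in embryos, and a higher call of srab-11, which was detected in neither condition.

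Markers of other tissues were checked for the whole animal. The 32 sarcomere genes had no call, a median of -0.33 and a summed intensity of 62404 in starved 0 h larvae and 72047 in embryos. The 15 pharynx markers had no call either, with a median of -0.83, 2 at least 2-fold higher and 6 at least 2-fold lower. The lowest ratio was in phat-2, a pharyngeal gland gene, which averaged 80.7 ± 29.5 in starved 0 h larvae and 2074 ± 189 in embryos. The 2 higher ones were marg-1, at 154 ± 19.5 in starved 0 h larvae and 8.11 ± 4.96 in embryos, and phat-3, at 167 ± 26.1 in starved 0 h larvae and 28.2 ± 8.53 in embryos. Of 21 intestine markers none was called, with a median of 0.37 and sums of 21050.1 in starved 0 h larvae and 15399 in embryos. In the epidermis list, 29 genes, the junction gene dlg-1 fell slightly, with 967 ± 57.4 in starved 0 h larvae and 1221 ± 69.8 in embryos. The germline and oocyte lists had no call, with a summed germline intensity of 987 in starved 0 h larvae and 1426 in embryos, and a summed oocyte intensity of 1777 in starved 0 h larvae and 3480.0 in embryos. Their part in the results above was not tested.

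The fed 0 h larvae, compared with the same embryos, give values beside these. Both hatching comparisons share the embryo arrays, so they are not independent of each other. No probe set was called between starved and fed 0 h larvae (0 of 22548, 0%) after Benjamini-Hochberg adjustment of the authors' deposited p-values, the lowest adjusted p being 0.125, and the error-based test also called 0, while 1421 had an unadjusted p under 0.05 (6.3% of probe sets, and 6.54% of genes). Between fed 0 h larvae and embryos 0 probe sets were called by the same adjustment, with 3656 at an unadjusted p under 0.05. A call in one hatching comparison and none in the other is therefore no difference between them. Feeding and hybridization day cannot be told apart here, since starved 0 h and fed 0 h arrays shared no day.

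For the leading genes the fed 0 h means were as follows. The collagen col-98 averaged 2585 ± 385 in starved 0 h larvae, 445 ± 92.9 in fed 0 h larvae and 53 ± 18.2 in embryos, and adh-1 averaged 797 ± 118.9 in starved 0 h larvae, 256 ± 51.8 in fed 0 h larvae and 17.6 ± 12.63 in embryos. On the falling side col-65 averaged 721 ± 92.4 in starved 0 h larvae, 1883 ± 221 in fed 0 h larvae and 7446 ± 639 in embryos. The fed 0 h mean lay between the starved 0 h and embryo means in 14 of the 15 leading rises and 15 of the 15 leading falls. These genes were picked for extreme starved 0 h ratios, which by itself favours a fed mean in between. An effect of food on them therefore cannot be read from these counts. In asp-8 and idpp-10 the fed and starved means were within their errors of each other: asp-8 averaged 129.8 ± 23.8 in starved and 131 ± 40.6 in fed 0 h larvae, and idpp-10 averaged 15.5 ± 4.46 in starved and 17.2 ± 5.22 in fed 0 h larvae.

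The starved series shows where the 0 h level stands in the course that follows, as a description of means. The 0 h level of adh-1 was below its later ones: it averaged 17.6 ± 12.63 in embryos, 797 ± 118.9 at 0 h, 1617 ± 216 at 1 h, 5346 ± 653 at 3 h, 6640.0 ± 805 at 6 h and 5341 ± 653 at 24 h of starvation. The desaturase gene fat-6 averaged 653 ± 75.5 at 0 h, 2136 ± 252 at 6 h and 2948 ± 228 at 24 h, its highest mean. Others were highest near hatching. The glutathione transferase gene gst-14 averaged 134 ± 14.5 at 0 h, 107 ± 18.4 at 1 h and 34.8 ± 8.37 at 3 h, when it was no longer detected. The gene srdh-1 averaged 446 ± 38.8 at 0 h, 242 ± 20.9 at 3 h and 109 ± 12.8 at 6 h. The ground-like gene grl-21, which had risen at hatching, averaged 1914 ± 318 at 0 h, 1244 ± 218 at 1 h and 216 ± 58.7 at 3 h, and nlp-29 averaged 2658 ± 284 at 0 h and 288 ± 47 at 24 h. Among the falls col-65 had lower means still later, at 721 ± 92.4 at 0 h, 329 ± 43.6 at 1 h and 99.3 ± 20.7 at 24 h, and lon-8 averaged 165 ± 21.2 at 0 h and 461 ± 42.2 at 24 h. These later steps were not tested here.

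**Figure D4:**
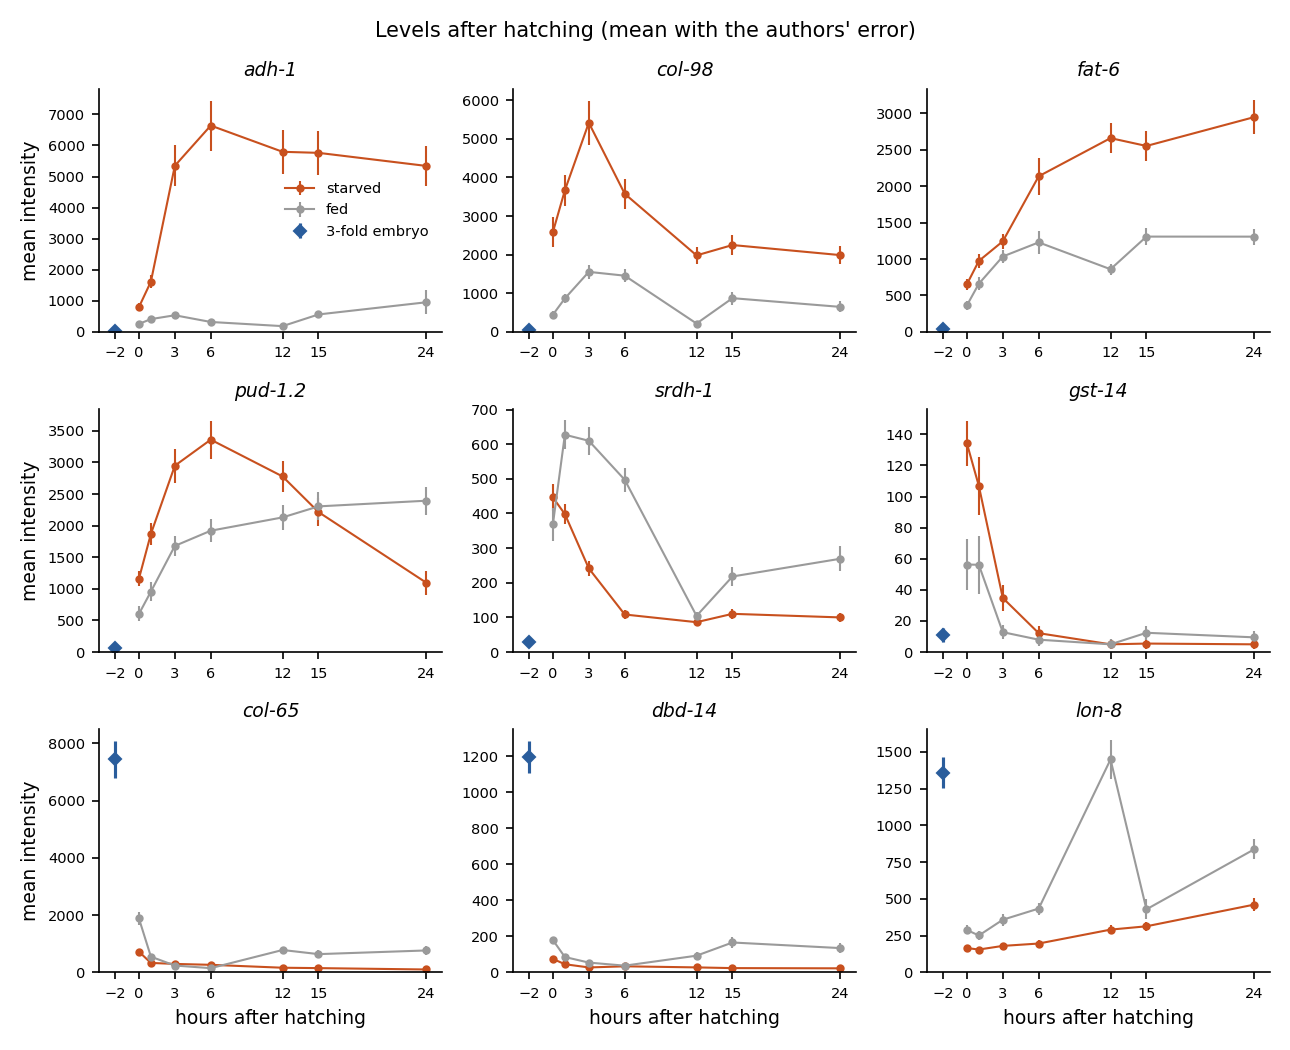
Mean intensity with the authors' error against hours after hatching for 9 of the leading genes, in 3-fold embryos (diamond, at -2 h), starved larvae (orange) and fed larvae (grey), each panel on its own linear axis that starts at 0. The starved mean of adh-1 climbs to 6640.0 ± 805 at 6 h, gst-14 is highest at 0 h with 134 ± 14.5, and col-65 stays far below its embryonic 7446 ± 639 in both series.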

How the data were processed

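RNA of staged worm populations was amplified, labelled with biotin and hybridized to Affymetrix C. elegans arrays, per the labels' protocols. The authors deposited mean intensities per probe set over 3 biological replicates, with values under 5 set to 5, an experimental error of each mean, a detection p used here as a score against background, and unadjusted p-values of tests between conditions. No source used here gives the software, background correction, normalization, scale of the tests or error model. Probe sets were mapped by the authors to WormBase release 180, per the file headers. Matches of a probe set to transcripts of related genes were not examined for any gene named here.

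From these, 77 control probe sets were left out, log2 ratios of the linear means were taken, errors were propagated, and the deposited p-values were adjusted by Benjamini-Hochberg over 22548 probe sets (threshold 0.05). Under detection in the lower condition, a fold is a nominal bound: the brighter mean over the higher of the dim mean and the lowest detected mean of that condition. Where the dim mean is the higher, this is the plain ratio of the means, and the errors are left out throughout. Names came from a RefSeq gene table (19155 probe sets) and the platform annotation (596). The 227 probe sets where these differ were left out of naming. A gene takes its probe set with the highest mean over all conditions.

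Named genes were the 15 highest and 15 lowest called ratios detected in the higher condition, up to 4 called genes per direction in each of 54 lists, all of short lists, and a set of known genes. The 15 highest and 15 lowest were taken among probe sets mapped to 1 gene with a public name. Members and lists were chosen with earlier results of these data known. After values had been seen, 2 lists lost misplaced genes, and lists by name pattern were matched to older names as well. Python 3.11.15, numpy 2.4.6, scipy 1.17.1 and pandas 2.3.3 were used, and functions were tested on simulated data. Arrays, 3 a condition, limit the precision, and no array-level values were used here.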

Additional observations from a re-analysis of the deposited data

How the results depend on the processing

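The number of calls depended strongly on the test, the filter and the size of the error, while the named genes kept their direction apart from 3 uncalled ones. Against 542 calls (260 higher, 282 lower, 366 of at least 2-fold with detection), the error-based test on the linear difference with 4 degrees of freedom called 646 (261 higher, 385 lower, 586 of that size). On the log2 ratio it called 838 (379 higher, 459 lower, 723 of that size), with a normal distribution 6379 (3292 higher, 3087 lower, 2901 of that size), after quantile normalization 713 (291 higher, 422 lower, 637 of that size), and after centring on the probe sets detected in both conditions 952 (347 higher, 605 lower, 826 of that size). The authors' p-values cannot be recomputed under another scaling, so these alternatives change the test as well. Restricting the adjustment to probe sets detected in at least 1 condition, which tests fewer of them, gave 1891 calls (960 higher, 931 lower, 1175 of that size), and 534 of the 542 were among them. With means under 20 raised to 20 the error-based test made 0 calls in total, 0 higher, 0 lower and 0 of at least 2-fold, and with errors of at least 15% of the mean it made 0 in total, 0 higher, 0 lower and 0 of that size. Of the named genes with a call, the error-based tests with 4 degrees of freedom kept 49 on the linear difference, 63 on the log2 ratio, 51 after quantile normalization and 59 after centring, the normal distribution kept 102, and the detection filter kept all of them. The reversed log2 ratios were cki-2 at -0.0248, mlc-5 at -0.0409 and daf-12 at -0.0469 after centring, and mlc-5 at -0.0040 after quantile normalization, none of them called. With only members detected in at least 1 condition the list medians moved to -1.51 for the apical matrix, -2.13 for the hedgehog-related genes, -1.47 for the astacins and 1.03 for the C-type lectins, and the chemoreceptors had 0 rises. With the mean over all probe sets of a gene the sarcomere list had 1 fall and the epidermis list 1 rise. Centring shifted the median of all probe sets by -0.05. Leave-one-out was not possible, because the values used are condition means. No paired analysis was possible because the values used hold no replicates. Dim signal limits the folds of genes below detection to nominal bounds that leave out the errors.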
